A study of Mus musculus with 12 samples.

Results

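Glutamine synthetase and the carriers that move glutamate and glutamine between astrocytes and neurons were examined in the septum of lactating and virgin mice. The genes were Glul, the plasma membrane glutamate transporters Slc1a1, Slc1a2 and Slc1a3, the vesicular glutamate transporters Slc17a6, Slc17a7 and Slc17a8, and the glutamine transporters Slc38a2, Slc38a3 and Slc38a5. They were found by their symbol in the annotation of the array, and every transcript cluster of a gene was kept, a transcript cluster being a set of probes designed against a common transcribed region. This gave 11 clusters for the 10 genes, of 35556 clusters in all, with 2 clusters for Glul and 1 for each of the others. The list of genes was drawn up with the lactating minus virgin differences of these arrays already known, and the study had picked Glul and Slc1a1 on them. Those differences are therefore given as a description, as are the calls of the fit over all clusters, whose counts stand beside their background.

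All mice were adult females of about 70 days from a line bred for high maternal aggression out of outbred hsd:ICR stock, with no engineered allele. The 6 lactating females had been housed with a breeder male for 2 weeks and were taken on postpartum days 6 to 8, and the 6 age-matched virgin females had shared a cage with other females over the same time. All then lived singly on breeder chow. Each mouse gave 1 array of total septal RNA. Virgin mice were in estrus or diestrus, not proestrus, and which mouse was in which stage is not given in the sources used here. The groups differ in mating, pregnancy, birth, nursing and pups together, and 1 selected line was used. The labels name the lateral septum and the methods the whole septum. All 10 markers fixed for the septum were measured, with mean intensities of 563 to 7055, where the median over all clusters was 331. Markers of the bordering striatum averaged 1668 to 4073, so these intensities do not single out the septum.

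Glutamate released at a synapse is cleared mainly by astrocytes, which carry GLAST (Slc1a3) and GLT-1 (Slc1a2) in their membranes and turn the glutamate into glutamine through glutamine synthetase (Glul). Glutamine leaves astrocytes through system N carriers such as Slc38a3 and Slc38a5 and enters neurons through system A carriers such as Slc38a2. Neurons turn it back into glutamate, which Slc17a6 (VGLUT2), Slc17a7 (VGLUT1) or Slc17a8 (VGLUT3) load into vesicles, or into GABA, the main transmitter of septal neurons. Slc17a7 is typical of cortical and hippocampal excitatory neurons, Slc17a6 of subcortical ones, and Slc17a8 of scattered cells that also use other transmitters.

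Promoter sequences from RefSeq (build GRCm38.p6) were available for 9 of the 10 genes, in 11 windows of the 250 bases before a transcription start. The windows of Glul and Slc38a2, whose intensity was higher on average in lactating mice, and those of the vesicular transporters Slc17a6 and Slc17a7, the clusters with the widest relative range over the 12 mice, are shown, with the first of the 2 windows of Slc17a6; the other held none of the motifs. The letters searched were CCAAT for the CCAAT box and GGGCGG for the GC box. For the TATA box they were TATAAA. For the E-box they were CACGTG. Both strands were read, each motif was counted separately, and capitals mark every match.
Glul, chr1:153899679-153899928, plus strand: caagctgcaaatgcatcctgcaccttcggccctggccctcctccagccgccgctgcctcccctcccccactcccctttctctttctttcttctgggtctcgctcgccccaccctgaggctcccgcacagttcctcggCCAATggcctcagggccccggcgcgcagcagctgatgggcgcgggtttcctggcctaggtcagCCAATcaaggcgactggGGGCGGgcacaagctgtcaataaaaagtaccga
Slc38a2, chr15:96699729-96699978, minus strand: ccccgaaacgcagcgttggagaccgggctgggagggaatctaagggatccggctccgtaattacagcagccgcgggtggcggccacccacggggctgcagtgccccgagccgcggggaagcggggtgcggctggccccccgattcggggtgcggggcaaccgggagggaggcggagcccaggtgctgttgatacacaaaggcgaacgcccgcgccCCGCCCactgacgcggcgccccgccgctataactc
Slc17a6, chr7:51621580-51621829, plus strand: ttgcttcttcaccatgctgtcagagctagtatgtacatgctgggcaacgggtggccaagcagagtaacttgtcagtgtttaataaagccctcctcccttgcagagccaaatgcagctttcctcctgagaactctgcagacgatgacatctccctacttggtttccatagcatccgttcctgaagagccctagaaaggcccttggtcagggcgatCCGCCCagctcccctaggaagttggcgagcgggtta
Slc17a7, chr7:45163671-45163920, plus strand: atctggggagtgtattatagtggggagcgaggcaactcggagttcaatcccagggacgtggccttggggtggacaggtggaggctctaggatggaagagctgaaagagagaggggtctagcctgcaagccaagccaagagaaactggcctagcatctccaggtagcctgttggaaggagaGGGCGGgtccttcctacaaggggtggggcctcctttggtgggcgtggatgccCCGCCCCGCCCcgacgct
A GC box was present in 7 of the 11 windows and in 32.7% of the 32851 windows of all genes. A CCAAT box was present in 2 of the 11, those of Glul and Slc1a3, and in 33.8% of all windows. The TATA box stood in the window of Slc1a3 and in 12.4% of all, and the E-box in that of Slc38a5 and in 6.02% of all. Slc17a7 carried 3 GC boxes and Glul 2 CCAAT boxes. These matches describe the letters only.

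In the comparison of lactating with virgin mice, 8 of the 11 clusters were higher on average in lactating mice, those of Glul, Slc1a1, Slc1a3, Slc17a6, Slc17a7, Slc17a8 and Slc38a2, and 3 were lower, those of Slc1a2, Slc38a3 and Slc38a5. The differences were 3.56% and 6.07% for the Glul clusters and 23.9% for Slc17a6, and that of Slc17a7, at 104%, had the widest spread between mice. The 2 astrocytic uptake carriers Slc1a2 and Slc1a3 differed by -2.4% and 0.498%. Of the 11 clusters, 3 had a positive and 2 a negative difference with an unadjusted p under 0.05 in limma, where 7.95% of all clusters had such a p, 3.26% as higher and 4.69% as lower. After subtracting the median of each array the split over all clusters was 2027 higher and 992 lower, against 1160 and 1668 as deposited, and Slc38a3 was no longer among the 5. Leaving out 1 array left 3 (without lactating mouse 3) to 5 of the 11. The genes were chosen with this contrast known, so nothing is read from the count. None of the 11 clusters separated the groups without overlap, which 0.394% of all clusters did. Over the 11 clusters the median log2 difference was 0.05, and over all clusters it was -0.009. No cluster on the array had an adjusted p under 0.05 in limma (lowest 0.0715), while 2828 had an unadjusted p under 0.05, and the lowest adjusted p among the 11 was 0.619.

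**Figure D1:**
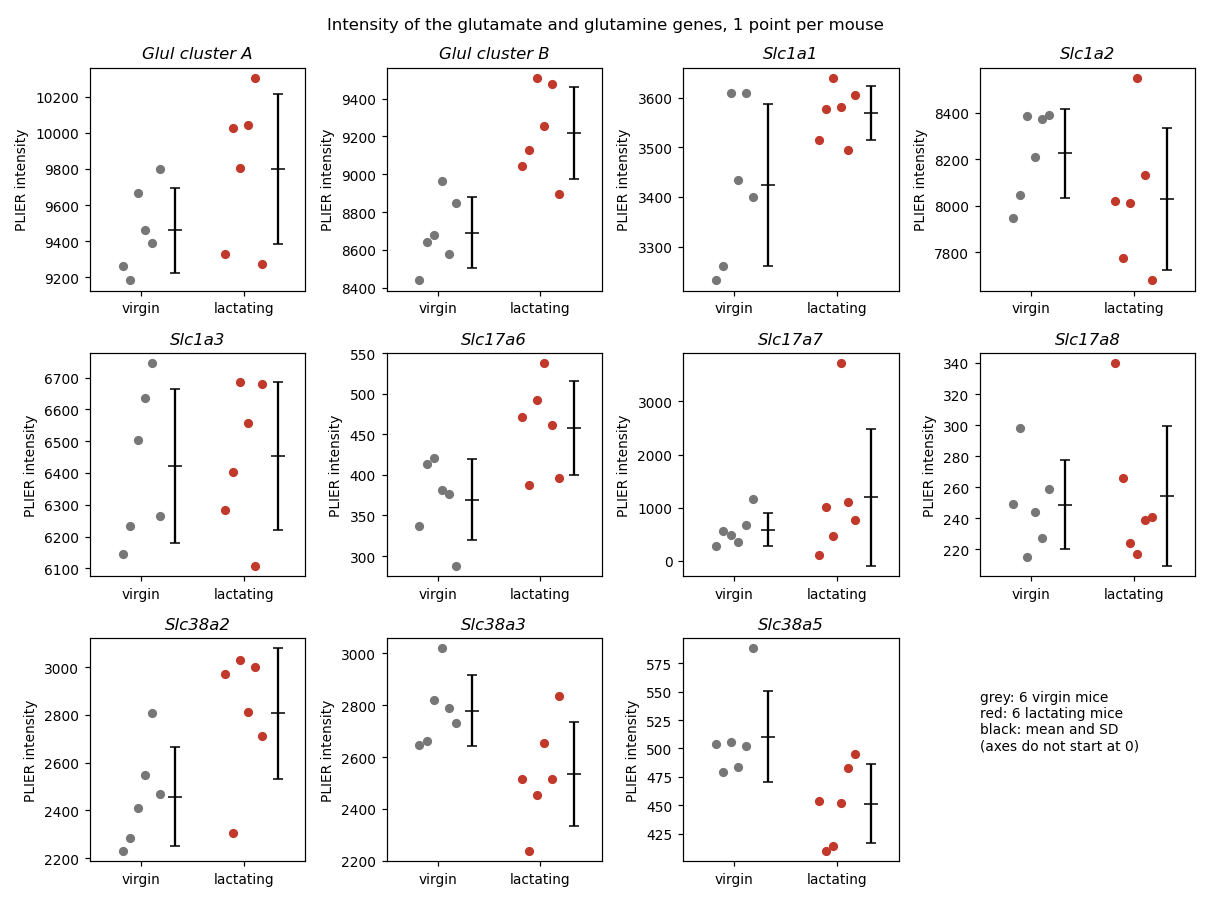
PLIER intensity (vertical axis, linear, not starting at 0) of the 11 clusters with a point for each of the 6 virgin mice (grey) and the 6 lactating mice (red) and black bars for the mean and SD. Slc17a7 runs from 113 to 3722, and 4 of the 6 lactating mice lie above every virgin mouse for Slc17a6 and for Slc38a2.

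Glul encodes glutamine synthetase, which joins glutamate and ammonia to glutamine in astrocytes and also in oligodendrocytes. Its 2 clusters were among the brightest on the array, and they did not separate the groups to the same degree. The first, cluster A (10350753), ranged from 9183 to 9798 with a median of 9429 in virgin mice and from 9275 to 10305 with a median of 9914 in lactating mice. Of the lactating mice, 4 lay above every virgin mouse, while lactating mice 1 and 6, at 9331 and 9275, lay low in the virgin range. Its means were 9798 ± 415 (SD, n = 6) and 9461 ± 236 (SD, n = 6), a log2 difference of 0.05 with a standard error of 0.0367. The second, cluster B (10374453), ranged from 8438 to 8966 with a median of 8661 in virgin mice and from 8897 to 9511 with a median of 9193 in lactating mice. The overlap was a single pair, lactating mouse 6 at 8897 below virgin mouse 4 at 8966. The means were 9219 ± 243 and 8691 ± 189 (SD, n = 6 each), a log2 difference of 0.08 with a standard error of 0.0317.

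RefSeq lists a pseudogene of glutamine synthetase, Glns-ps1, whose nearest coding neighbours include C1d on 1 side and Spred2 on the other. The number of cluster B lies between those of clusters for C1d and Spred2, and that of cluster A between Teddm1a and Zfp648, which flank Glul itself in RefSeq. The annotation names both clusters Glul with the same RefSeq transcript. Probes of near-identical copies can read the same RNA, so which copy gave the signal of cluster B is uncertain. With the group means subtracted, the clusters correlated over the 12 mice at r = 0.67 (permutation within groups, p = 0.0332) and Spearman's rho = 0.67 (permutation within groups, p = 0.0349), with adjusted p = 0.571 and 0.48 over 55 pairs of clusters. Without the 2 mice farthest from the median of cluster A, r was 0.46.

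Slc1a1 encodes EAAC1, the glutamate carrier of neurons, which also brings in cysteine. Its intensity ranged from 3232 to 3610 with a median of 3417 in virgin mice and from 3495 to 3640 with a median of 3580 in lactating mice. The lactating mice lay close together, with an SD of 54.9 around 3569, and the virgin mice were spread, with an SD of 163 around 3425. Virgin mice 3 and 5, at 3610 and 3609, were as high as the lactating mice, and the other 4 lay below all of them. On the log2 scale the difference came to 0.06, with 0.0369 as its standard error. A further cluster, which the study assigned to Slc1a1, has no row in the annotation used here and so was not counted among the 11. Its means were 1142 ± 50.9 (lactating) and 1021 ± 38.2 (virgin, SD, n = 6 each), 11.8% apart, with 5 of the 6 lactating mice above every virgin mouse. The log2 difference of this further cluster was 0.16 with a standard error of 0.04. Unlike the annotated cluster, it had an unadjusted p under 0.05 in limma, with an adjusted p of 0.619 over all clusters.

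Slc1a2 encodes GLT-1, the main glutamate carrier of forebrain astrocytes. The virgin values lay between 7948 and 8392 around a median of 8291, and the lactating ones between 7678 and 8551 around 8016. The lactating range held the whole virgin range, and the means were 8028 ± 307 and 8226 ± 191 (SD, n = 6 each), a log2 difference of -0.04 with a standard error of 0.035. Slc1a3, the GLAST carrier of astrocytes and radial glia, lay between 6145 and 6746 around a median of 6384 in the virgin group and between 6108 and 6687 around 6480 in the lactating group. Its means were 6421 ± 243 and 6453 ± 232 (SD, n = 6 each), and the log2 difference of 0.01 had a standard error of 0.0377, larger than the difference itself. Among 14 other astrocyte markers, Gjb6 and Fgfr3 rose and Slc4a4 fell at an unadjusted p under 0.05 in limma. Of 19938 genes, 8.69% had such a p. The mean log2 deviation of the 14 markers lay between -0.08 and 0.07 in virgin mice and between -0.04 and 0.08 in lactating mice. In a bulk sample, fewer cells of a type and less RNA per cell cannot be told apart.

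**Figure D2:**
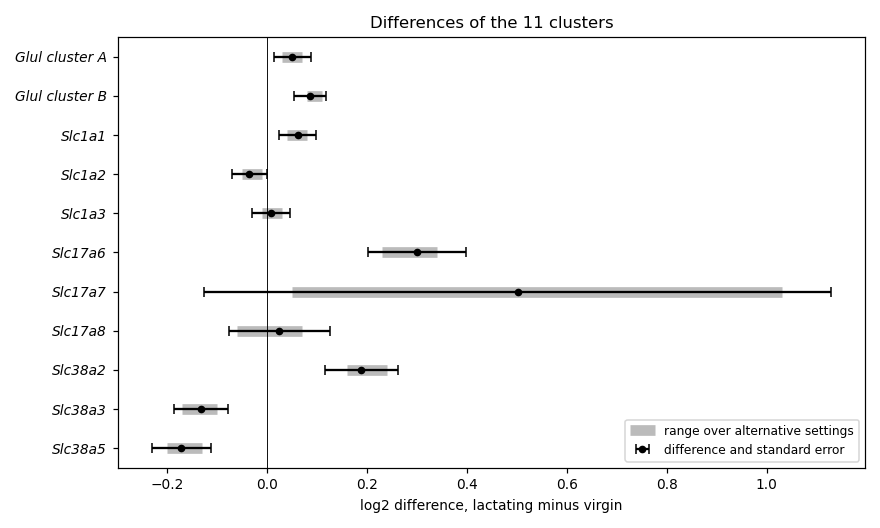
Log2 difference of each of the 11 clusters, lactating minus virgin (horizontal axis), with its standard error as a black bar and the range over the alternative settings as a grey band. The band of Slc17a7 reaches from 0.05 to 1.03, and only the bands of Slc1a3 and Slc17a8 cross 0.

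Among the vesicular transporters, Slc17a6 was higher in most lactating mice, Slc17a7 varied widely within both groups, and Slc17a8 was dim with overlapping groups. Slc17a6 read 337, 413, 421, 381, 376 and 288 in virgin mice 1 to 6 and 471, 387, 492, 538, 462 and 396 in lactating mice 1 to 6. Lactating mice 2 and 6 lay within the virgin range and the other 4 above it. The means were 458 ± 57.7 (SD, n = 6) against 369 ± 49.7 (SD, n = 6), a log2 difference of 0.30 with a standard error of 0.0986.

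Slc17a7 read 281, 558, 482, 364, 680 and 1163 in virgin mice 1 to 6. In lactating mice 1 to 6 it read 113, 1007, 475, 3722, 1110 and 765. The lowest and the highest of all 12 mice were both lactating, 33-fold apart, where no other member cluster ranged over more than 1.87-fold. The means of 1199 ± 1290 and 588 ± 315 (SD, n = 6 each) gave a log2 difference of 0.50 with a standard error of 0.628, which fell to 0.05 without lactating mouse 4 and rose to 1.02 without lactating mouse 1.

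Slc17a8 lay between 215 and 298 around a median of 247 in the virgin group and between 217 and 340 around 240 in the lactating group, with means of 249 ± 28.8 and 255 ± 45.1 (SD, n = 6 each). This is close to 245, the level under which 95% of the 1205 clusters of odorant and vomeronasal receptor genes lay. Its highest value, 340, was that of lactating mouse 1, the mouse lowest for Slc17a7. The log2 difference came to 0.02, with 0.101 as its standard error.

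The range of Slc17a7 across mice was set beside markers of the brain regions that border the septum. Of 11 measured markers of cortical and hippocampal excitatory neurons, Neurod6 and Tbr1, transcription factors of such neurons, ranged over 18.1-fold and 6.81-fold between mice, while Camk2a, Neurod2 and Lamp5, the brightest of the list, ranged over 1.11-fold to 1.35-fold. Neurod6 read 716 in lactating mouse 4 and 39 in lactating mouse 1. The mean log2 deviation of the list was 0.71 in lactating mouse 4, with the next mouse at 0.12, and -0.20 in lactating mouse 1, the lowest. Slc17a7 followed this level over the 12 mice at Pearson's r = 0.89 (permutation test, two-sided, p = 2e-05) and Spearman's rho = 0.99 (permutation test, two-sided, p = 2e-05), the smallest p that 100000 resamples give. The adjusted p was 0.0006 for each over 30 relations, those of the 10 genes with 3 marker levels. Without lactating mouse 4 and virgin mouse 6, the farthest from the median, r was 0.85. Within lactating mice r was 0.89, and within virgin mice it was 0.95. With the group means subtracted, r over the 12 mice was 0.89. Of the list, Nrn1 rose and no other gene was called at an unadjusted p under 0.05 in limma, against 8.69% of 19938 genes.

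**Figure D3:**
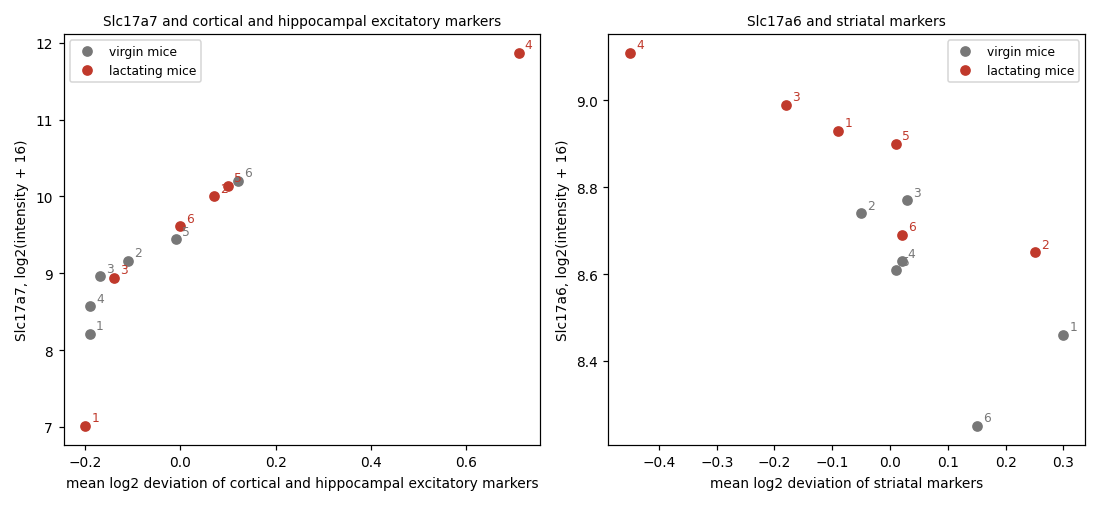
Left, Slc17a7 as log2 of intensity plus 16 (vertical axis) against the mean log2 deviation of cortical and hippocampal excitatory markers (horizontal axis). Right, Slc17a6 against the mean log2 deviation of striatal markers. Each point is a mouse with its number, grey for virgin and red for lactating. Lactating mouse 4 is highest on both vertical axes, and r is 0.89 on the left and -0.81 on the right.

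Patterns like that of Slc17a7 over the 12 mice were sought, with the group means subtracted, among 21778 clusters with 1 symbol outside the member genes. The most alike were Cck (r = 0.956), Neurod6 (0.948), Tbr1 (0.947), Cerkl (0.928) and Sv2b (0.900). Here and for Slc17a6 and Glul below, such a list holds the highest r of all 21778 candidates over only 12 mice. How high r would run among unrelated clusters was not tested. Neurod6 and Tbr1 are themselves in the list of cortical and hippocampal markers. Cck encodes cholecystokinin and Sv2b a synaptic vesicle protein. Cck ranged from 259 to 3139 and Sv2b from 2177 to 4513.

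Slc17a6 ran against the striatal markers, which stand for the striatum that borders the septum. Its correlation with the mean log2 deviation of 7 measured markers, led in intensity by Pde10a, Drd2 and Rasd2, was r = -0.81 (permutation test, two-sided, p = 0.00116) and rho = -0.82 (permutation test, two-sided, p = 0.00218), with adjusted p = 0.0174 and 0.0327 over the 30 relations. These permutations ran over all 12 mice regardless of group, so the p-values include any difference between the groups. With the group means subtracted r was -0.78. Within lactating mice r was -0.91 and within virgin mice -0.69, and without lactating mouse 4 and virgin mouse 1 it was -0.70. This relation was tried after seeing the data. The striatal level ran from -0.45 in lactating mouse 4 to 0.30 in virgin mouse 1, with means of -0.08 ± 0.24 in lactating and 0.08 ± 0.13 in virgin mice (SD, n = 6 each), and none of the 7 markers was called at an unadjusted p under 0.05 in limma. The part of this in the difference of Slc17a6 was not tested. The clusters most like Slc17a6 in pattern were Tcp11l1 (0.922), Pim3 (0.916), Mcc (0.914), Lpgat1 (0.904) and the kainate receptor gene Grik1 (0.901). Of the 30 relations, 2 had an adjusted p under 0.05, these and that of Slc17a7.

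The astrocyte level, over markers such as Aldoc, Gja1 and Slc4a4, gave no relation with an adjusted p under 0.05 for any of the 10 genes. For Glul, taken by its brighter cluster, r was 0.38 (permutation test, two-sided, p = 0.213) and rho 0.45 (permutation test, two-sided, p = 0.139), with adjusted p = 0.476 and 0.462 and r = 0.69 without lactating mouse 6 and virgin mouse 6. Within virgin mice r was 0.96 and within lactating mice -0.11, a contrast that was not tested. The clusters most like Glul in pattern were Dnajc13 (0.894), Flvcr1 (0.894), Olfr1160 (0.892), Efcab5 (0.889) and Stxbp5l (0.875). Being the highest of 21778 candidates, they are not shown to be related to Glul. Olfr1160, an odorant receptor gene, averaged 26, at the dim end of the array.

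The glutamine transporters went both ways. Slc38a2 (SNAT2), a system A carrier that also rises in cells short of amino acids, read 2230, 2283, 2412, 2549, 2806 and 2468 in virgin mice 1 to 6. In lactating mice 1 to 6 it read 2971, 2307, 3030, 2813, 3000 and 2712. Lactating mice 2 and 6 lay within the virgin range and the other 4 above it, and virgin mouse 5 was the highest of its group. The means were 2805 ± 273 (SD, n = 6) and 2458 ± 207 (SD, n = 6), 14.1% higher in lactating mice, a log2 difference of 0.19 with a standard error of 0.0731. Its correlation with the striatal level was r = -0.63 (permutation test, two-sided, p = 0.0208, adjusted p = 0.208) and rho = -0.73 (permutation test, two-sided, p = 0.0093, adjusted p = 0.093). Without lactating mouse 4 and virgin mouse 1 r was -0.63, and within lactating and virgin mice it was -0.59 and -0.41.

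Slc38a3 (SNAT3), the system N carrier of astrocytes, read 2648, 2660, 2820, 3019, 2788 and 2732 in virgin mice 1 to 6. In lactating mice 1 to 6 it read 2517, 2238, 2454, 2654, 2517 and 2836. Of the lactating mice, 4 lay below every virgin mouse, mouse 4 lay just inside the virgin range and mouse 6 lay among the highest virgin mice. The means were 2536 ± 200 against 2778 ± 136 (SD, n = 6 each), a log2 difference of -0.13 with a standard error of 0.0546.

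Slc38a5 (SNAT5), another system N carrier, read 504, 479, 506, 484, 502 and 588 in virgin mice 1 to 6. In lactating mice 1 to 6 it read 454, 410, 414, 452, 483 and 495. The 4 virgin mice at 502 or more lay above all lactating mice, and lactating mice 5 and 6 overlapped virgin mice 2 and 4. The means were 452 ± 34.6 against 511 ± 39.6 (SD, n = 6 each), a difference of -11.6%, and on the log2 scale of -0.17 with a standard error of 0.0598.

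Between mice of the same group, pairs of member clusters had r of both signs. With the group means subtracted, 36 of 55 pairs of clusters had an r above 0 and 18 an r below 0, after rounding, over the 12 mice, from -0.57 to 0.78, and 3 pairs had an unadjusted p under 0.05 (permutation within groups) and 0 an adjusted p under 0.05. The highest r was that of Slc1a1 and Slc1a3, at 0.78 (permutation within groups, p = 0.00243, adjusted p = 0.134) with rho = 0.87 (permutation within groups, p = 0.00053, adjusted p = 0.0291). It was 0.95 within lactating mice and 0.84 within virgin mice, and 0.71 without the 2 mice farthest from the median of Slc1a1. Slc17a8 had a negative r with all 10 other clusters, but r with Slc17a7 was 0.25 without the 2 mice farthest from the median of Slc17a7, and r with Slc38a5 was 0.17 without the 2 farthest from that of Slc17a8. Within virgin mice r was 0.14 with Slc17a7 and 0.04 with Glul cluster B. All clusters of a mouse share 1 array.

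**Figure D4:**
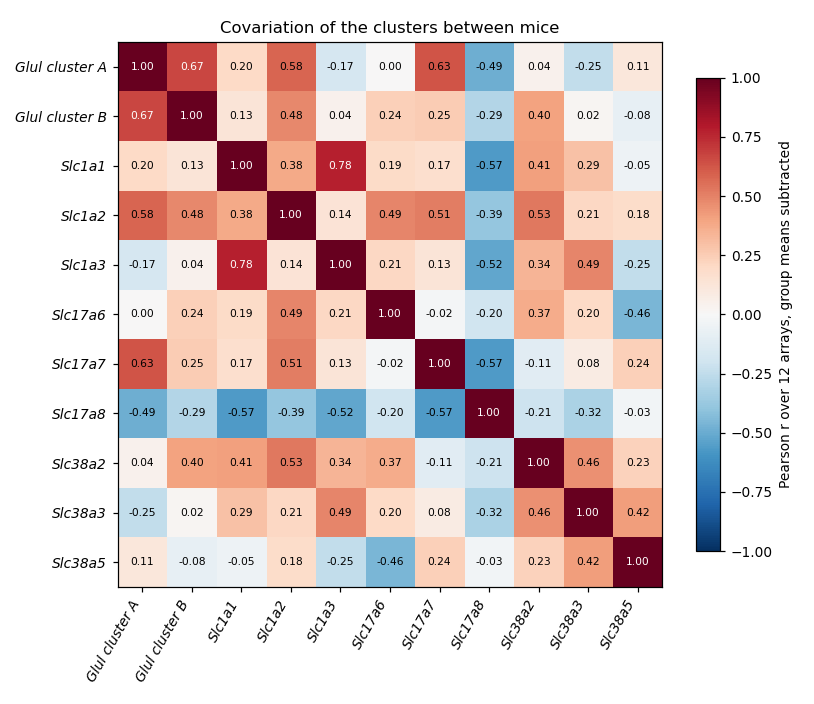
Pearson's r between each pair of the 11 clusters over 12 mice with the group means subtracted (colour from -1 to 1, value in each cell). Slc1a1 and Slc1a3 have the highest r, 0.78, and the row of Slc17a8 is negative throughout with all 12 mice.

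The enzymes and carriers around this cycle were compared as a further list of 47 genes, of which 41 had a cluster under their symbol alone. The tested cluster of each gene was its brightest. Of the 41, 4 rose and 1 fell at an unadjusted p under 0.05 in limma, where 8.69% of 19938 genes had such a p, 3.86% as higher and 4.83% as lower. Their median log2 difference was 0.021. For these 5 genes the adjusted p in limma over all clusters was 0.619 (Gpt2, Prodh, Aldh4a1 and Slc16a1) or 0.623 (Slc25a22). The exact permutation p-values below come from the same 12 values that picked the 5 genes and are no second line of evidence.

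Gpt2, the mitochondrial alanine transaminase that makes glutamate from 2-oxoglutarate and alanine, had means of 1281 ± 71.3 (lactating) and 1134 ± 70.1 (virgin, SD, n = 6 each), 0.17 apart on the log2 scale (exact permutation test, two-sided, p = 0.00649). Prodh and Aldh4a1, which in sequence turn proline into glutamate, were higher on the log2 scale by 0.17 (exact permutation test, p = 0.0281) and 0.16 (exact permutation test, p = 0.0195). Prodh averaged 649 ± 49.1 against 576 ± 40.7, and Aldh4a1 357 ± 23.1 against 318 ± 25.8 (SD, n = 6 each). Slc25a22, a mitochondrial glutamate carrier, was 0.08 higher on the log2 scale (exact permutation test, p = 0.0152), with 1952 ± 73.5 against 1839 ± 74.6 (SD, n = 6 each), and had an unadjusted p under 0.05 in 10 of 20 alternatives.

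Slc16a1, the lactate carrier MCT1, was the 1 gene with a negative difference and an unadjusted p under 0.05 in limma. It read 615, 781, 735, 739, 771 and 906 in lactating mice 1 to 6, with a mean of 758 ± 93.7 against 883 ± 62.5 in the virgin group (SD, n = 6 each), -0.22 on the log2 scale (exact permutation test, two-sided, p = 0.0238). Lactating mouse 6 lay in the upper virgin range and 4 of the lactating mice lay below every virgin mouse.

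The genes that turn glutamate into GABA and load it were not called. Gad1 averaged 6608 ± 200 against 6524 ± 266 and Gad2 7076 ± 362 against 7034 ± 245 (SD, n = 6 each), with log2 differences of 0.02 and 0.01. The vesicular GABA transporter gene Slc32a1 had a log2 difference of 0.04 with a standard error of 0.0578, and the neuronal glutamine carrier gene Slc38a1 one of 0.03 with a standard error of 0.0394. Glud1, glutamate dehydrogenase, and the transaminase gene Got1 had 0.05 each, with standard errors of 0.0333 and 0.0366 (exact permutation test, two-sided, p = 0.0671 and 0.106).

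**Figure D5:**
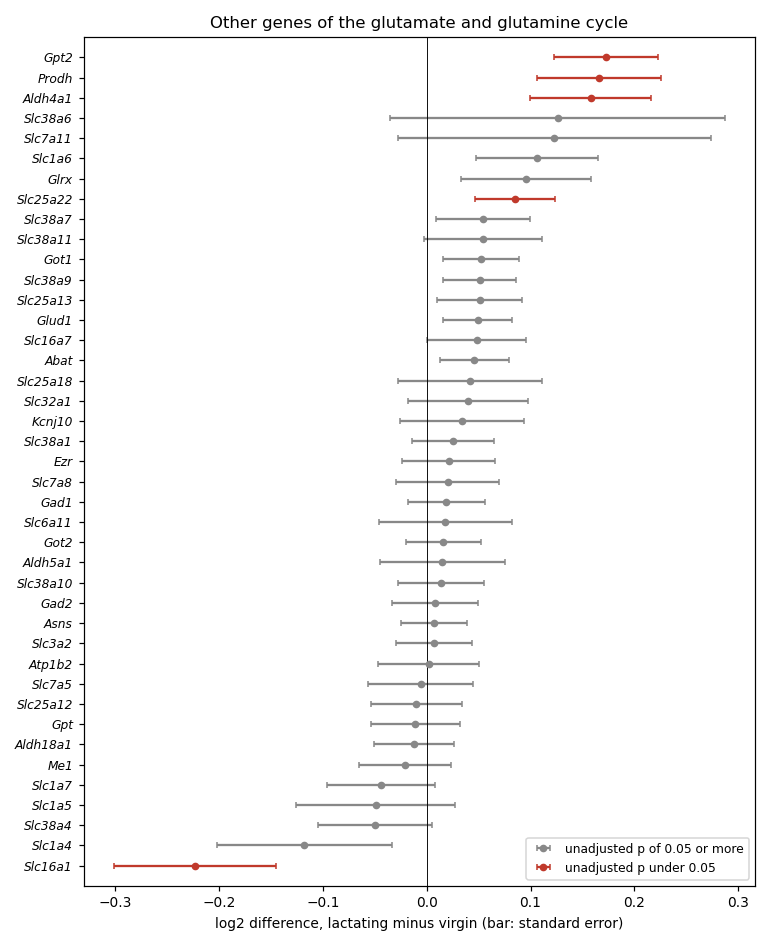
Log2 difference, lactating minus virgin, of 41 other genes of the glutamate and glutamine cycle (horizontal axis), with the standard error as a bar. Genes in red had an unadjusted p under 0.05 in limma, which are Gpt2, Prodh, Aldh4a1 and Slc25a22 on the higher side and Slc16a1 on the lower side.

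Of the other marker lists, that of microglia had 2 lower genes of 6 (P2ry12 and Cx3cr1) at an unadjusted p under 0.05 in limma, that of the choroid plexus 1 higher gene of 5 (Clic6), and that of blood was measured by Alas2 alone, which passed the same threshold on the higher side (log2 difference 0.31). The lists for the septum, the cholinergic medial septum, oligodendrocytes and endothelium had 0 genes called at an unadjusted p under 0.05 in limma, and that of thalamus and hypothalamus 1 higher of 7 (Calb2). The microglia level was 0.35 in virgin mouse 6, with the next mouse at 0.02. In virgin mouse 6 Cx3cr1 read 1013, its highest value, and P2ry12 read 806, within the range of the other virgin mice. Of 19938 genes, 3.86% had such a p as higher and 4.83% as lower, so single calls in short lists do not show a shift of a cell type. The part of these lists in the values above was not tested.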

How the data were processed

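RNA from the septum of 12 mice was hybridised to GeneChip Mouse Gene ST arrays, 1 per mouse, with groups taken from the sample titles. The authors summarised and normalized the probes with PLIER and a GC bin background correction in Affymetrix Power Tools 1.12.0, and the deposited values are these intensities on a linear scale. Array medians were between 319.6 and 339.1. The genome build of the array annotation is not given in the sources used here, so cluster positions are not printed. The number of arrays limits the precision.

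From the deposited intensities, log2(intensity + 16) was compared with limma 3.58.1 in R 4.3.3 (lmFit, eBayes, two-sided, Benjamini-Hochberg adjustment over all 35556 clusters, no filter on dim clusters). The value 16 compresses the differences of dim clusters. Brightness differs between probe sets, so an intensity set beside that of other clusters places it on the array and does not compare transcript levels. Single genes of the wider list were compared with an exact permutation test, and correlations with 100000 permutations in scipy 1.17.1. For correlations with marker levels the permutations ran over all 12 mice regardless of group. A marker level is the mean over a list of the log2 value minus the mean of the gene over the 12 arrays. In simulated arrays of 35556 clusters for this comparison, 92 of 100 clusters changed 1.15-fold and 100 of 100 changed 1.5-fold had an unadjusted p under 0.05, as did 4.86% of unchanged clusters. The changed clusters were drawn only from those above the median intensity, with independent normal noise. The counts therefore do not cover dim clusters such as Slc17a8.

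The members, the wider list, the marker lists and the tests were chosen with earlier results of these data known. Named were all member clusters, the genes of the wider list with an unadjusted p under 0.05 together with Gad1, Gad2, Slc32a1 and Slc38a1, the 5 clusters most like Glul, Slc17a6 and Slc17a7, and of marker lists the 3 brightest and those farthest from the rest in a named mouse. Gjb6, Fgfr3, Nrn1, P2ry12, Cx3cr1, Clic6, Calb2, Glud1 and Got1 were named after their values were seen. Alternatives were linear intensities, added values of 1 and 64, quantile normalization, median subtraction, clusters above the median intensity, a variance trend with robust estimation, a block for the replicate number, and leaving out single arrays. Scan dates and slides were not given in the sources used here.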

Additional observations from a re-analysis of the deposited data

Results flagged for a closer look

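Of 38 sets of 6 mice examined for a mouse far from the rest, 4 held such a mouse, where chance gives about 1 set in 20 for normally distributed values. Genes were examined on linear intensities, and marker levels on the log2 scale. Slc17a7 in lactating mouse 4, at 3722, stood 0.724 of the group's range from its nearest neighbour. This flag holds for the linear scale only. On the log2 scale lactating mouse 4 was at 11.87 and the next highest of its group at 10.14. Lactating mouse 1 was at 7.01 there and the next lowest at 8.94, a wider gap. The log2 values of Slc17a7 were not tested for such a mouse. The level of cortical and hippocampal excitatory markers in lactating mouse 4, at 0.71, stood 0.676 of the range from its nearest neighbour. Slc38a5 in virgin mouse 6, at 588, stood 0.754 of the range above the other virgin mice, and its log2 difference was -0.13 without that mouse. Prodh in lactating mouse 6, at 556, stood 0.639 of the range below the other lactating mice.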

How the results depend on the processing

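The members were chosen with this contrast known, so their calls under the alternatives are a description and support nothing. Over 20 alternatives (19 for Slc17a8), Slc17a6, Slc38a5 and Glul cluster B had an unadjusted p under 0.05 in each, with log2 differences of 0.23 to 0.34, -0.20 to -0.13 and 0.08 to 0.11. Slc38a2 passed in 15, and not without lactating mouse 1, 3 or 5 or virgin mouse 1 or 2 (0.16 to 0.17). Slc38a3 passed in 15, and not after median subtraction (-0.11) or without lactating mouse 2 or 3 or virgin mouse 3 or 4 (-0.13 to -0.10). Glul cluster A, the annotated cluster of Slc1a1, Slc1a2, Slc1a3, Slc17a7 and Slc17a8 passed in none. The sign turned for Slc1a3 (-0.01 to 0.03) and Slc17a8 (-0.06 to 0.07). The further Slc1a1 cluster was not followed over the alternatives. Gpt2, Prodh, Aldh4a1 and Slc16a1 passed in all 20 and Slc25a22 in 10, not with quantile normalization or the block or without lactating mouse 1 to 5 or virgin mouse 2, 5 or 6.

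At an unadjusted p under 0.05, median subtraction gave 2027 higher and 992 lower clusters of all and 1 lower member cluster. Clusters above the median intensity gave 1643, with 501 lower, of fewer clusters tested. Against 1160 higher and 1668 lower, linear intensities gave 1569 and 1274, quantile normalization 1301 and 1191, and the variance trend 1421 and 1441. Leaving out 1 array gave 1864 (without lactating mouse 3) to 4058 clusters in all, 782 to 1783 higher (most without virgin mouse 4) and 1054 to 2599 lower (fewest without virgin mouse 2, most without virgin mouse 3). It gave 3 (without lactating mouse 3) to 5 member clusters, 2 to 3 higher and 1 to 2 lower, with 1 lower without lactating mouse 2 or 3 or virgin mouse 3 or 4. It gave 4 to 6 genes of the wider list, 3 to 5 higher and 1 to 2 lower, with 2 lower without virgin mouse 2. The correlation of Slc17a7 with cortical and hippocampal markers was then 0.87 to 0.97, and that of Slc17a6 with striatal markers, tried after seeing the data, -0.87 to -0.73.

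Replicate number as a block gave 3194 clusters, 1159 higher and 2035 lower, with 3 higher and 2 lower member clusters and 3 higher and 1 lower genes of the wider list. Slc25a22 lost its call under the block, and no other call among the members or that list changed. Same-numbered mice correlated above 0.1 in 2 of 6 pairs (from -0.027 to 0.25), and the main comparison did not treat them as pairs. RNA was extracted in matched virgin and lactating pairs, and whether the numbers mark those pairs is not given in the sources used here.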
